A study of Camponotus floridanus with 64 samples.

Results

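Brains of scouts fed trichostatin A (TSA) together with C646 were compared with brains of scouts fed the solvent dimethyl sulfoxide (DMSO), in the carpenter ant Camponotus floridanus. The comparison takes the 6 scout RNA libraries labelled TSA+C646 and the 5 labelled DMSO, which are 11 of the 64 samples of the series. It is described over all 18130 identifiers of the scout expression table. The study concerns caste-specific behaviour in this ant, and its scout arm also holds 10 brains fed TSA alone.

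All 11 brains came from adult minor workers that acted as scouts, the ants that leave the nest to search for food, and each library was made from 1 central brain. The TSA+C646 scouts drank 20% sugar water with 50 µM TSA and C646, at 50 µM for replicates 11, 12, 13 and 16 and at 100 µM for replicates 14 and 15. The DMSO scouts, replicates 17 to 21, drank sugar water with 0.5% DMSO, the solvent that the drug solutions also held. TSA+C646 replicates 11, 13 and 16 came from colony SB1 at an age of 63 days, replicate 12 from colony SB6 at 57 days, and replicates 14 and 15 from colony SB4 at 66 days. DMSO replicates 17, 18 and 19 came from colony SB2, replicate 20 from colony SB6 and replicate 21 from colony SB7, all at 78 days. Age and treatment therefore cannot be told apart, the 100 µM dose cannot be told apart from colony SB4, and SB6 was the only colony with a brain in both groups. The labels give 45 days of feeding and isolation at an age of 25 to 30 days. An age less 25 days leaves 32 to 41 days of feeding in TSA+C646 scouts and 53 days in DMSO scouts, as the longest that isolation at that age allows. The labelled ages of the TSA+C646 scouts are therefore too low for the labelled 45 days, while those of the DMSO scouts are not.

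Histone tails carry acetyl groups that acetyltransferases add and deacetylases remove, and acetylated chromatin is generally open to transcription. TSA blocks class I and class II histone deacetylases. C646 competes with acetyl coenzyme A at the acetyltransferases p300 and CBP, so the combined feeding applied an inhibitor of acetyl removal and an inhibitor of acetyl addition. In this ant, the foraging and scouting behaviour of the worker castes has been linked to histone acetylation.

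Each library was made from RNA in 15% of the cells of a brain, after selection of polyadenylated RNA and 1 round of linear amplification. A level below is the deposited log2 value with the constant of its library removed and with an undetected identifier set to 0. All libraries follow 1 distribution, so a level records the rank of an identifier within its library. A difference is the mean deposited log2 value in TSA+C646 brains minus that in DMSO brains, with its standard error (SE). There, undetected identifiers keep deposited values that follow line order and are no estimate of expression. These reached 1.3 in replicate 15 and 0.914 in replicate 16, against 0.184 to 0.31 in the remaining TSA+C646 and DMSO libraries. Cflo_miRNA50, undetected in both groups, thus has a difference of 0.15. In whole brain tissue, fewer cells of a type and less RNA per cell cannot be told apart. Gene names are not paired with the numbered identifiers, and 0 of 18130 identifiers matched the reference table of 14020 genes, so neurons, glia and other brain cells could not be looked for by their markers. No sequence of any identifier was used here.

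TSA+C646 replicates 15 and 16 stood apart from the other 9 libraries, in opposite directions. Replicate 15 had 2791 identifiers detected and replicate 16 had 12032, against 8154 to 8826 in the other 4 TSA+C646 brains and 7825 to 8931 in the 5 DMSO brains. The constant that shifts all values of a library was -0.330 in replicate 15 and 0.907 in replicate 16, against -0.0447 to 0.0218 in the other 9 libraries. Replicate 14, the nestmate of replicate 15 at the same age and C646 dose, had 8543 identifiers detected and a constant of 0.001. Results are therefore given with and without these 2 libraries. Among the brains fed TSA alone, replicates 9 and 10 also had high constants, 0.482 and 0.840, with 11004 and 12328 identifiers detected. Both were kept in the TSA group.

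**Figure D1:**
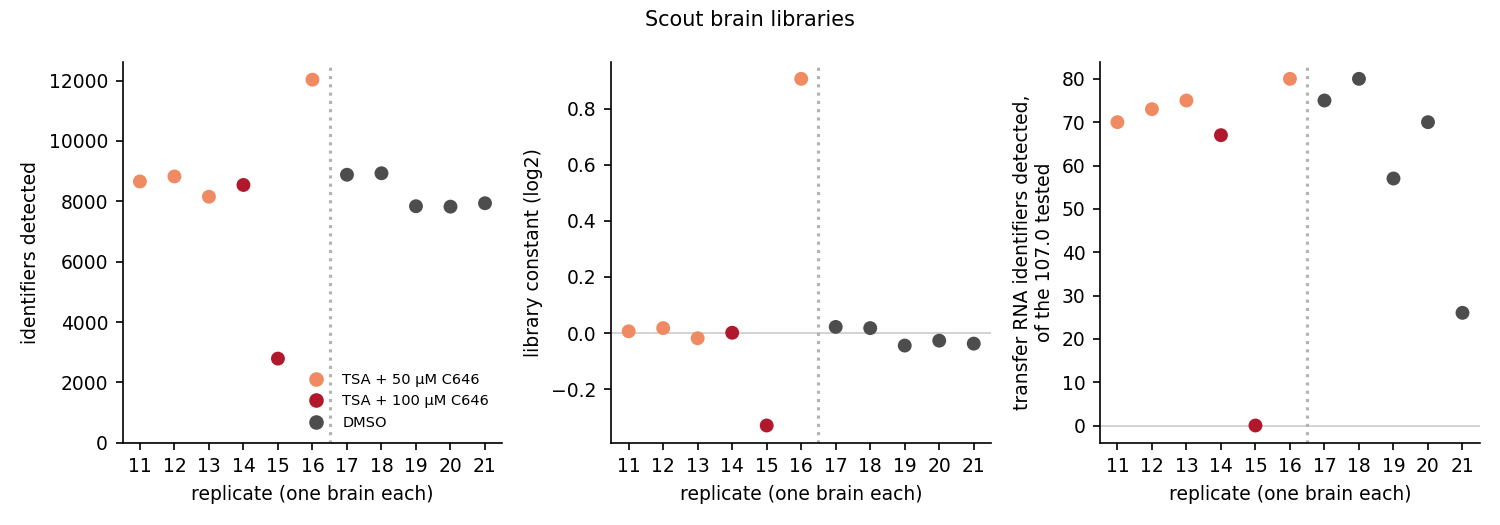
Identifiers detected, library constant on the log2 scale, and transfer RNA identifiers detected of the 107 tested, for each TSA+C646 brain (coloured by C646 dose) and each DMSO brain (grey), 1 point per brain. Replicate 15 is lowest and replicate 16 highest in the first 2 panels, and replicates 15 and 21 have the fewest transfer RNAs, with 0 and 26.

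The number of identifiers detected did not separate the groups. It averaged 8167.5 ± 2989 in TSA+C646 brains (SD, n = 6) and 8283 ± 571 in DMSO brains (SD, n = 5; exact two-sided permutation test, p = 0.965, where the design allows no p below 0.00433). The wide spread in TSA+C646 brains lay in replicates 15 and 16. Without them the mean was 8545.5 ± 286 in TSA+C646 brains (SD, n = 4), against 8283 ± 571 in DMSO brains (exact p = 0.492), so the sign of the difference turned.

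Genes were tested where the deposited values of the 21 scout libraries averaged 1 or more. Of these 4899 genes, 0 passed an adjusted p of 0.05 between TSA+C646 and DMSO brains (limma with a variance trend, Benjamini-Hochberg; 0% called). The smallest adjusted p was 0.511 (limma). At an unadjusted limma p under 0.05, 114 genes (2.33%) were higher in TSA+C646 brains and 36 (0.735%) were lower. The median difference over all tested genes was 0.05. The direction of this split depended on the scaling: with the library constants removed and undetected identifiers at 0, 77 genes (1.57%) were higher and 127 (2.59%) lower, around a median of -0.11. Without replicates 15 and 16, 0 genes passed, 74 (1.51%) were higher and 54 (1.1%) lower at an unadjusted limma p under 0.05, and the median difference was 0.01.

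The size of the errors sets what these counts can show. The median SE of a difference was 0.44 and the median half-width of its 95% interval was 0.91 on the log2 scale. The interval lay wholly between -1 and 1 for 1531 genes (31.3%) and wholly between -2 and 2 for 4013 genes (81.9%). Estimated differences exceeded 1 in size for 359 genes, of which 205 were higher and 154 lower in TSA+C646 brains, and exceeded 2 for 43 genes. For the genes whose interval reaches past -1 or 1, a difference of that size was not excluded.

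**Figure D2:**
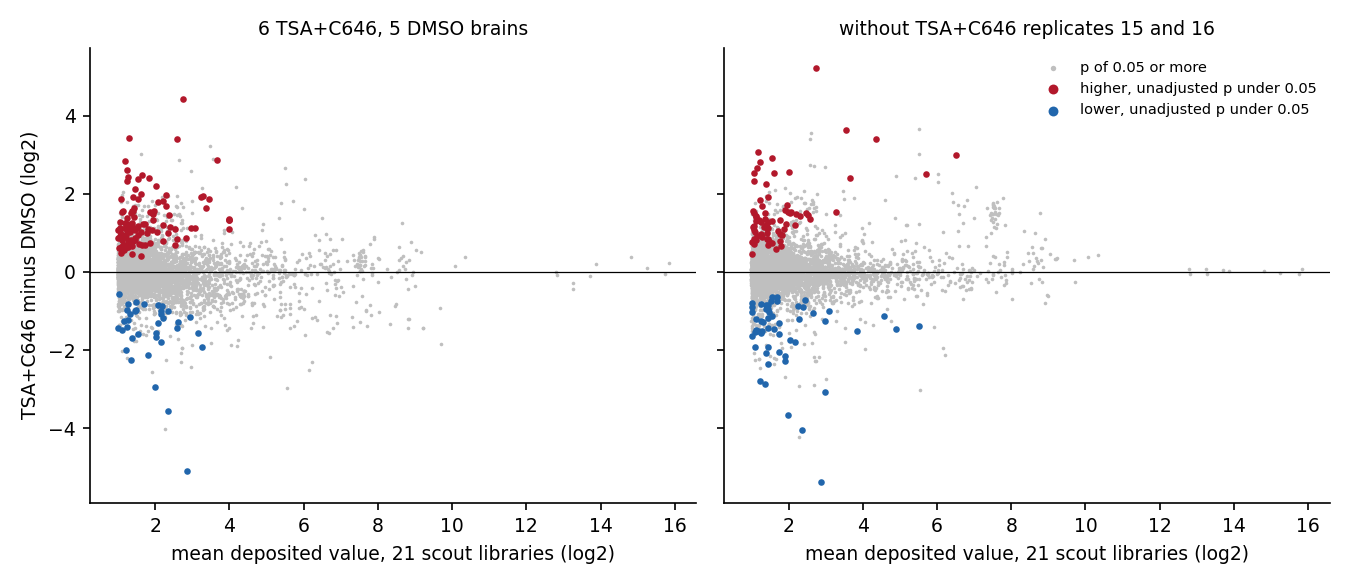
Difference in log2 value, TSA+C646 minus DMSO, against the mean deposited value over the 21 scout libraries for the 4899 tested genes, with all 11 brains (left) and without TSA+C646 replicates 15 and 16 (right). Genes at an unadjusted limma p under 0.05 are red where higher (114 left, 74 right) and blue where lower (36 left, 54 right), and 0 genes pass the adjusted threshold in either panel.

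Few genes at an unadjusted limma p under 0.05 lay at high levels. Of the 114 higher genes, 62 had a mean deposited value between 1 and 1.5, a bin that held 2118 of the 4899 tested genes. Of the 36 lower genes, 15 lay in that bin, near its share of all tested genes. Another 15 lay between 2 and 3, a bin of 948 genes. Above a mean of 4, where 245 genes lay between 4 and 6 and 166 above 6, 1 gene was higher and 0 were lower. The median SE grew with level, being 0.40 in the lowest bin and 0.96 above 6. The median difference was 0.12 in the bin from 1 to 1.5 and -0.16 in the bin from 3 to 4, and without replicates 15 and 16 these medians were 0.00 and -0.02.

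By level, replicate 15 stood at the edge of the TSA+C646 range in most genes of both lists. Its undetected values reached 1.3 as deposited, so a detected identifier in this library had a deposited value above 1.3. With its constant of -0.330 removed, the level of a detected identifier lay higher still, and all other levels were 0. Low levels like those of the other brains could not occur in it. It was the highest of the 6 TSA+C646 brains in 82 of the 114 higher genes (71.9%), against 1297 of all 4899 tested genes (26.5%). Replicate 15 was at a level of 0 in 36 of the 36 lower genes (100%), against 3156 of all tested genes (64.4%). The fit used the deposited values, where the order of the libraries differs. There replicate 16 was the highest of the 6 in 41 of the 114 higher genes (36.0%), against 2991 of all tested genes (61.1%). The higher genes numbered 55 without replicate 16 and 169 without replicate 15. Of the 114 higher genes, 36 (31.6%) were also higher at an unadjusted limma p under 0.05 without replicates 15 and 16, and of the 36 lower genes 18 (50%) were also lower.

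The identifier with the smallest p was Cflo_16200. Its level was lowest at 3.10, median 3.88 and highest at 7.02 in the 6 TSA+C646 brains, and was 0, 2.02, 3.02, 0 and 2.81 in the 5 DMSO brains. Every TSA+C646 brain lay above every DMSO brain, although the lowest TSA+C646 level (replicate 16) and the highest DMSO level (replicate 19) were close. The difference was 2.86 (SE 0.60; limma, adjusted p = 0.511), and it was 2.39 without replicates 15 and 16 (limma, adjusted p = 1). Over all alternatives its limma adjusted p ran from 0.0992 to 1. In the 10 brains fed TSA alone Cflo_16200 was detected in 10, with levels of 3.33 to 4.81 and a median of 4.12. The TSA minus DMSO difference, which uses the same DMSO brains, was 2.69 (SE 0.54; limma, adjusted p = 0.261). In the only shared colony, SB6, the TSA+C646 brain exceeded the DMSO brain by 3.82, a value from 1 brain a side with no replicate check.

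Cflo_15590 was another of the 3 identifiers with no overlap between the groups and higher TSA+C646 levels. It had levels of 3.46 to 6.20 with a median of 3.89 in TSA+C646 brains, against 3.29, 1.70, 2.25, 3.20 and 1.46 in DMSO brains. The highest TSA+C646 level was again in replicate 15 and the groups were separated by a narrow gap. The difference was 1.94 (SE 0.64; limma, adjusted p = 0.999) and 1.53 without replicates 15 and 16. Brains fed TSA alone had levels of Cflo_15590 between 0 and 4.66, with a median of 3.01, overlapping with both groups.

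Cflo_15421 was the third identifier without overlap. It stood at 0.85 to 1.89 with a median of 1.01 in TSA+C646 brains and at 0.72, 0.62, 0.42, 0.68 and 0.57 in DMSO brains. The separation was small against the difference of 0.63 (SE 0.30; limma, adjusted p = 0.999), which was 0.36 without replicates 15 and 16. Over all 18130 identifiers, 3 (0.0165%) had every TSA+C646 level above every DMSO level and 27 (0.149%) had every level below. Without replicates 15 and 16, 68 (0.375%) lay above and 55 (0.303%) below. With the values as deposited the 2 counts were 23 and 7, so which direction was more frequent depended on the constants.

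The other genes among the 12 with the smallest p on the higher side sat at lower levels. Cflo_15390 had levels of 0.90 to 2.68 in TSA+C646 brains, median 1.79, and of 0.48, 0.25, 1.73, 0 and 0 in DMSO brains. Here 1 DMSO brain, replicate 19, reached into the TSA+C646 range. The difference was 1.37 (SE 0.36) and 1.27 without replicates 15 and 16. Cflo_04913 had levels of 0.81 to 2.59 in TSA+C646 brains, median 1.51, against 0.78, 0.73, 0.59, 1.10 and 0.60 in DMSO brains, with a difference of 1.04 (SE 0.29). Its overlap was that of TSA+C646 replicate 16 with DMSO replicate 20, and all 11 brains had it detected. Cflo_11163 was detected in all 11 brains too, at 1.52 to 2.71 with a median of 1.89 in TSA+C646 brains and at 1.61, 0.88, 0.87, 1.10 and 0.82 in DMSO brains. DMSO replicate 17 alone reached the TSA+C646 range, and the difference was 1.00 (SE 0.30).

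Cflo_12048 and Cflo_01990 differed mainly through DMSO brains at or near 0. Cflo_12048 ranged from 0.80 to 2.82 with a median of 1.90 in TSA+C646 brains and stood at 0, 0.45, 0, 0.82 and 1.58 in DMSO brains. Its difference was 1.42 (SE 0.42). Cflo_01990 ranged from 1.13 to 2.55 with a median of 1.43 in TSA+C646 brains, against 0.37, 0, 0.41, 1.24 and 0.47 in DMSO brains, and its difference was 1.22 (SE 0.35). In the SB6 pair, with 1 brain a side and different ages, these 2 genes differed by 0.03 and 0.00. Other genes of the higher list varied widely in that pair, such as Cflo_15390 at 1.36, Cflo_16291 at 1.81 and Cflo_05532 at -0.07. Without replicates in this pair, no conclusion is drawn from it.

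Cflo_11008 stood at 1.04 to 2.09 with a median of 1.62 in TSA+C646 brains and at 1.27, 0.46, 0.76, 0.98 and 0.78 in DMSO brains, a difference of 0.81 (SE 0.25). Its levels in brains fed TSA alone were 0.96 to 2.10, median 1.51, with a TSA minus DMSO difference of 0.81 (SE 0.23). The remaining genes of the higher list, Cflo_13664, Cflo_15393, Cflo_09998, Cflo_05532 and Cflo_16291, had differences of 1.11, 1.29, 0.86, 1.22 and 2.21. Cflo_15393 had a TSA minus DMSO difference of -0.01 (SE 0.37), and its levels in TSA+C646 brains were 0.66 to 4.04 with the highest in replicate 15. Of the 12 genes, 10 had their highest TSA+C646 level in replicate 15, and 11 kept an unadjusted limma p under 0.05 without replicates 15 and 16. The exception was Cflo_05532, with an unadjusted limma p of 0.0611.

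On the lower side, Cflo_15938 had the smallest p. It was detected in 2 of 6 TSA+C646 brains, at 1.25 in replicate 13 and 1.05 in replicate 16, and had levels of 2.25, 1.68, 1.16, 1.84 and 2.95 in the 5 DMSO brains. The groups overlapped only through TSA+C646 replicate 13 and DMSO replicate 19. The difference was -1.43 (SE 0.44; limma, adjusted p = 0.999) and -1.65 without replicates 15 and 16. Brains fed TSA alone ranged from 0 to 1.44 with a median of 0.92, and the TSA minus DMSO difference was -1.14 (SE 0.40).

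Cflo_04438 did not overlap between the groups. TSA+C646 levels ran from 0 to 1.10 with a median of 0.41, and DMSO levels were 2.02, 1.60, 1.86, 1.38 and 1.59. Its difference was -0.96 (SE 0.33) on deposited values, -1.25 without replicates 15 and 16, and -1.24 with the constants removed, none passing the adjusted threshold. The brains fed TSA alone spanned 0 to 1.74, median 1.31, and differed from the same DMSO brains by -0.32 (SE 0.30).

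Cflo_14112 also had no overlap, with TSA+C646 levels of 0 to 2.2, median 1.65, and DMSO levels of 3.01, 3.0, 3.02, 2.61 and 4.57. Both 100 µM brains, replicates 14 and 15, were at 0. Its difference was -1.80 (SE 0.58) and -1.79 without replicates 15 and 16. The third gene of this list without overlap was Cflo_15886, at 0 to 3.80 with a median of 2.47 in TSA+C646 brains and at 4.28, 4.25, 4.17, 3.98 and 4.56 in DMSO brains. DMSO brains were tightly grouped for this gene while TSA+C646 brains were spread, and the difference of -1.91 (SE 0.70) was -1.26 without replicates 15 and 16. Cflo_15886 was detected in 10 of 10 brains fed TSA alone, at 0.05 to 5.38, and in 0 of the 10 brains that the series holds from 1-day-old workers.

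**Figure D3:**
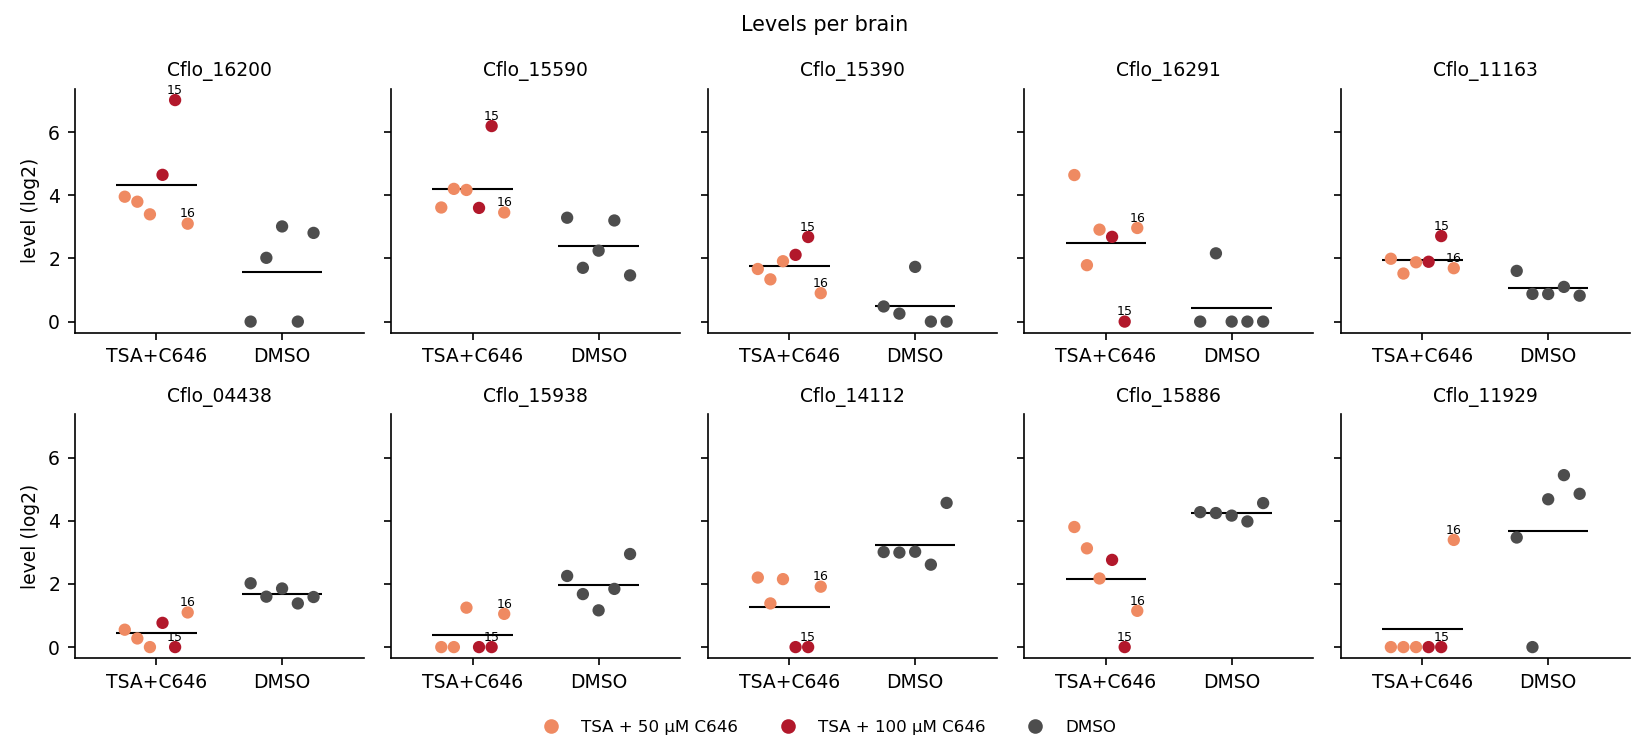
Level per brain (log2, library constant removed, undetected at 0) of 10 named identifiers in TSA+C646 brains, coloured by C646 dose, and DMSO brains in grey, with the group mean as a line and replicates 15 and 16 marked. The 6 TSA+C646 brains of Cflo_16200 lie at 3.10 to 7.02, all above the DMSO brains, and those of Cflo_04438 at 0 to 1.10, all below them.

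Several genes of the lower list turned on replicates 15 and 16. Cflo_12934 had levels of 0 to 2.58, median 1.62, in TSA+C646 brains and of 3.10, 2.83, 2.58, 2.60 and 2.97 in DMSO brains, a difference of -1.30 (SE 0.45) that was -0.88 without the 2 libraries. Cflo_03271, with 0 to 2.69, median 1.78, in TSA+C646 brains and 2.51, 2.69, 3.18, 2.47 and 2.49 in DMSO brains, had a difference of -0.88 (SE 0.33) that was -0.52 without them. Replicate 15 was at 0 and replicate 16 at 0.41 and 0.46 for these 2 genes, under the other 4 TSA+C646 brains. Cflo_04870 and Cflo_12525 had differences of -0.86 and -1.0, which were -0.52 and -0.69 without the 2 libraries. Of the 12 lower genes, 12 had replicate 15 at 0, and 6 kept an unadjusted limma p under 0.05 without replicates 15 and 16.

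Cflo_02835 kept such a p (0.0153), with levels of 0 to 1.56, median 0.91, in TSA+C646 brains and of 1.56, 1.69, 1.95, 2.40 and 2.21 in DMSO brains. Its difference of -0.81 (SE 0.27) stood beside a TSA minus DMSO difference of -0.06 (SE 0.25). For Cflo_12525 the TSA minus DMSO difference was 0.36 (SE 0.37), on the other side of 0. These side-by-side values share the DMSO brains, and whether TSA+C646 and TSA alone differ for these genes was not tested.

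The remaining 3 genes of the lower list were undetected in at least 4 of the 6 TSA+C646 brains. Cflo_11929 was detected in 1 of 6 TSA+C646 brains, at 3.40 in replicate 16, and had DMSO levels of 3.47, 0, 4.68, 5.45 and 4.86. Cflo_10501 was detected in 2 TSA+C646 brains, at 2.06 in replicate 12 and 2.94 in replicate 16, and had DMSO levels of 4.87, 5.97, 0, 5.88 and 6.10. Cflo_12534 was detected in replicates 11 and 12 alone, at 4.29 and 1.02, and stood at 2.10, 2.32, 3.69, 4.39 and 3.36 in DMSO brains. Their differences were -2.96 (SE 1.12), -3.57 (SE 1.40) and -2.12 (SE 0.86), the largest errors among the lower genes listed by p.

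Among identifiers without overlap on the lower side, the largest differences of mean level also included Cflo_16054, Cflo_12676 and Cflo_12874. Cflo_16054 was detected in 2 of 6 TSA+C646 brains, at 0.49 in replicate 12 and 0.16 in replicate 16, against 1.37, 1.56, 1.55, 2.95 and 1.83 in DMSO brains. Its mean over the scout libraries was below the level at which genes were tested. Cflo_12676 ranged from 0 to 4.06, median 3.41, in TSA+C646 brains, and stood at 4.37, 4.47, 4.63, 4.73 and 4.20 in DMSO brains. Cflo_12874 ranged from 0 to 3.43, median 3.09, in TSA+C646 brains, against 3.65, 4.05, 3.56, 3.77 and 3.47 in DMSO brains. The difference of Cflo_12676 was -1.36, or -0.77 without replicates 15 and 16, and that of Cflo_12874 was -1.17, or -0.42 without them.

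Presence and absence were also compared directly, since an undetected identifier can be a failed estimate. Of the 18130 identifiers, 1792 were detected in all 11 brains, 4264 in none and 12074 in some. There were 0 identifiers detected in all 6 TSA+C646 brains and in none of the 5 DMSO brains, and 0 with the reverse pattern. Without replicate 15 these counts were 6 and 0, and without replicates 15 and 16 they were 6 and 4. In Fisher's exact test over the 12074, 14 (0.116%) were detected more often in TSA+C646 brains and 7 (0.058%) less often at an unadjusted p under 0.05. The smallest unadjusted Fisher p was 0.0152 and 0 identifiers passed after Benjamini-Hochberg adjustment. With 6 and 5 brains, a single identifier could not pass over 12074 tests even if it split the groups fully. The 0 passing was thus near fixed by the design and does not show that detection was alike. The most frequent pattern with a brain missing was 5 of 6 TSA+C646 brains and 5 of 5 DMSO brains, with 2593 identifiers, and in 2502 of these the missing brain was replicate 15.

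**Figure D4:**
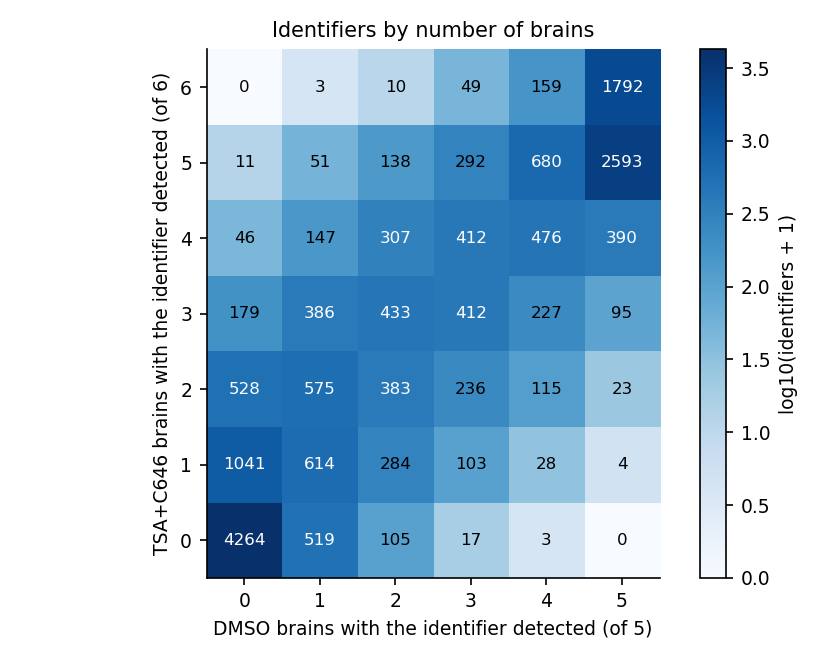
Number of identifiers by how many of the 6 TSA+C646 brains (vertical) and of the 5 DMSO brains (horizontal) detected them, with colour on a log10 scale. The corners for detection in all brains of 1 group and none of the other hold 0 identifiers each, and 1792 were detected in all 11 brains.

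Identifiers detected in at least 5 TSA+C646 brains and at most 1 DMSO brain numbered 65, and those detected in at most 1 TSA+C646 brain and at least 4 DMSO brains numbered 35. Of the 65, 11 were detected in 5 of 6 TSA+C646 brains and 0 DMSO brains, and 3 in all 6 TSA+C646 brains and 1 DMSO brain. By difference in level, the largest of the 65 was that of Cflo_13865, detected in 5 of 6 TSA+C646 brains at 2.94 to 8.79 and at 0 in replicate 15, and in 1 of 5 DMSO brains at 3.28 in replicate 17. Its difference was 4.41 (SE 1.45; limma, adjusted p = 0.999), and it was detected in 5 of the 10 brains fed TSA alone. Cflo_16291 had the same detection, 5 of 6 TSA+C646 brains with a highest level of 4.64, and 1 of 5 DMSO brains at 2.16. It was detected in 9 of the 10 brains fed TSA alone, with a TSA minus DMSO difference of 1.98 (SE 0.64) beside its TSA+C646 minus DMSO difference of 2.21 (SE 0.70).

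Cflo_15128 and Cflo_15676 were likewise detected in 5 of 6 TSA+C646 brains and 1 of 5 DMSO brains, with highest levels of 7.04 and 4.96 in replicate 15. Their single DMSO values were 3.48 in replicate 17 and 2.65 in replicate 19, above the TSA+C646 medians of 3.09 and 2.16. The 3 identifiers detected in all 6 TSA+C646 brains and in 1 DMSO brain, which were picked after their values were seen, were Cflo_01634, Cflo_13151 and Cflo_15639. Their TSA+C646 levels ran from 0.10 to 2.09, from 0.68 to 4.97 and from 0.60 to 2.97, and the DMSO brain that had them stood at 0.19, 2.26 and 2.0. All 3 were highest in replicate 15, and for each of them the DMSO brain that detected it lay inside the TSA+C646 range.

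In the other direction, Cflo_11701, Cflo_13890 and Cflo_14313 were detected in only 1 TSA+C646 brain, replicate 16, at 2.41, 1.82 and 4.18. Cflo_14313 had DMSO levels of 2.84, 0.76, 2.83, 2.30 and 2.82 and a median of 2.97 in brains fed TSA alone, 7 of which detected it. Cflo_11701 and Cflo_13890 were at 0 in 1 DMSO brain each and at 1.06 to 4.51 and 1.77 to 2.87 in the others. The 4 identifiers detected in 1 TSA+C646 brain and all 5 DMSO brains were Cflo_14313, Cflo_08884, Cflo_00141 and Cflo_00906, named after their values were seen. The 1 TSA+C646 brain was replicate 16 for each of them, the library with the most identifiers detected. The same 4 identifiers were the ones detected in none of replicates 11 to 14 and in all 5 DMSO brains, beside the 6 detected in all of replicates 11 to 14 and in 0 DMSO brains.

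Cflo_08884, Cflo_00141 and Cflo_00906 were low in DMSO brains, at 0.18 to 1.23, 0.21 to 1.15 and 0.65 to 1.08. Cflo_00141 was detected in all 10 brains fed TSA alone, at 0.49 to 1.13, and in all 6 subsample libraries of 1 day 1 brain. Detected in no TSA+C646 brain and in 4 of 5 DMSO brains were Cflo_12691, Cflo_13330 and the gustatory receptor Cflo_GR8, again named after their values were seen. Cflo_13330 stood at 1.87, 1.01, 0, 1.41 and 3.58 in DMSO brains, and 6 of the 10 brains fed TSA alone detected it, with a median of 2.21. Cflo_GR8 stood at 0.68, 1.28, 0.74, 0.39 and 0 in DMSO brains.

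Some identifiers carry their class in their name. Transfer RNAs, which bring amino acids to the ribosome and are not polyadenylated as a rule, had 458 identifiers, of which 107 were tested. At an unadjusted limma p under 0.05, 0 of them were higher and 1 was lower, beside 2.33% higher and 0.735% lower over all tested genes. At these shares the classes described here, most with 21 tested members or fewer, are too small for a count of 0 or 1 to set them apart. Detection of the 107 set libraries apart within both groups: replicate 15 had 0, against 67 to 80 in the other 5 TSA+C646 brains, and DMSO replicate 21 had 26, against 57 to 80 in the other 4. The median transfer RNA level was 6.80 to 7.82 in TSA+C646 brains other than replicate 15, and 5.88 to 7.72 in DMSO brains other than replicate 21.

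The sign of the transfer RNA difference depended on which of these libraries were included. The median over the 107 was 0.18 with all 11 brains, beside 0.05 over all tested genes. It was 1.14 without replicates 15 and 16, -1.05 without DMSO replicate 21, and -0.09 without all 3. The 1 lower transfer RNA, Cflo_tRNA468, was at 0 in all 6 TSA+C646 brains and at 7.33, 0, 9.86, 10.27 and 0 in DMSO brains. Its difference was -5.10 (SE 2.15; limma, adjusted p = 0.999), and 3 of the 10 brains fed TSA alone detected it. Cflo_tRNA486 was detected in TSA+C646 replicates 11 and 12 at 5.53 and 5.57 and in 0 DMSO brains, and Cflo_tRNA417 in 0 TSA+C646 brains and in DMSO replicates 17 and 20 at 6.58 and 4.81.

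Ribosomal RNA, the RNA of the ribosome itself, had 38 identifiers and 21 tested, with 0 higher and 0 lower. The 5 identifiers with the highest mean in TSA+C646 brains and in DMSO brains were the same: Cflo_13243, Cflo_rRNA18, Cflo_rRNA15, Cflo_rRNA22 and Cflo_rRNA27. All levels record ranks within a library, because all libraries follow 1 distribution, and at the top they take a few shared steps. Cflo_13243 was at 15.26 to 15.86, median 15.62, in TSA+C646 brains and at 15.86, 15.62, 15.86, 15.86 and 15.86 in DMSO brains. Cflo_rRNA18 was at 15.62 to 15.86, median 15.86, in TSA+C646 brains and at 15.62, 15.86, 15.62, 15.62 and 15.62 in DMSO brains. The 2 identifiers held the first and second rank in all 5 DMSO brains. Cflo_rRNA13, which was off the top, was detected in 0 TSA+C646 brains and in DMSO replicates 18 and 19 at 10.67 each.

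Small nuclear RNAs, parts of the splicing machinery, had 29 identifiers and 12 tested, with 0 higher and 0 lower and a median difference of -0.31, or -0.66 without replicates 15 and 16. Cflo_snRNA13 was the most evenly detected of those named, at 0 to 9.54, median 7.43, in TSA+C646 brains and at 7.48, 7.82, 7.61, 7.78 and 8.14 in DMSO brains. Its 5 DMSO brains lay close together while replicate 15 was at 0. Cflo_snRNA9 was at 0 in 3 TSA+C646 brains and up to 5.10 in the others, against 5.51, 2.96, 6.71, 6.44 and 0 in DMSO brains, with a difference of -1.87 (SE 1.28). Cflo_snRNA29 was detected in 3 of 6 TSA+C646 brains and 4 of 5 DMSO brains, with a difference of -0.43 (SE 0.62). MicroRNAs, which are too short for this kind of library as a rule, had 119 identifiers, of which 6 were detected in any of the 11 brains. Of the 2 tested, Cflo_miRNA52 was detected once in each group, at 6.98 in TSA+C646 replicate 16 and 6.87 in DMSO replicate 21, and Cflo_miRNA50 in neither group.

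Odorant receptors, the ligand-binding subunits with which antennal neurons detect odours, had 406 identifiers, of which 228 were detected in at least 1 of the 11 brains and 0 in all of them. The count per brain was 70, 49, 50, 60, 13 and 149 in TSA+C646 brains and 54, 58, 31, 43 and 56 in DMSO brains. It was lowest in replicate 15 and highest in replicate 16, as was the total detected. As a share of the identifiers detected it was 1.24% in replicate 16, against 0.395% to 0.808% in the other brains. Only 6 passed the level filter, with 0 higher and 0 lower and a median difference of -0.17. Cflo_OR61 had levels of 0 to 2.71, median 1.93, in TSA+C646 brains and of 2.95, 2.78, 3.05, 1.40 and 2.51 in DMSO brains, a difference of -0.90 (SE 0.54). Cflo_OR24 was detected in 2 of 6 TSA+C646 brains, at 1.54 and 0.21, and in all 5 DMSO brains at 0.33 to 1.70. Cflo_OR96 was highest in replicate 15 at 3.19, and the other TSA+C646 brains overlapped with the DMSO brains. Cflo_ORco, the co-receptor that odorant receptors need, was too low to be tested. It stood at 0.67, 0, 0, 0.85, 0 and 0.04 in TSA+C646 brains and at 0.92, 0.24, 0, 0 and 0 in DMSO brains.

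Ionotropic receptors, which sense acids and amines among other cues, had 31 identifiers and 1 tested. That one, Cflo_IR311, had levels of 0 to 2.76, median 2.08, in TSA+C646 brains and of 1.48, 2.97, 2.0, 1.58 and 2.41 in DMSO brains, a difference of -0.08 (SE 0.43). The co-receptor Cflo_IR25a, below the filter, was detected in all 6 TSA+C646 brains at 0.10 to 2.08, median 0.57, and in 2 of 5 DMSO brains, at 0.29 and 0.63. The DMSO brain at 0.63 lay above 4 of the 6 TSA+C646 brains, and 9 of the 10 brains fed TSA alone detected the gene. The co-receptor Cflo_IR8a was detected in 5 of 6 TSA+C646 brains and 3 of 5 DMSO brains, and Cflo_IR76b in 2 of 6 and 2 of 5. These 4 co-receptors were picked by name after their values were seen.

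Gustatory receptors, the contact receptors for taste, had 63 identifiers and 1 tested. Cflo_GR48 stood at 0 to 4.18, median 3.39, in TSA+C646 brains and at 4.53, 2.18, 3.35, 3.46 and 2.74 in DMSO brains, a difference of -0.43 (SE 0.78) that was 0.44 without replicates 15 and 16. Taxonomically restricted genes had 57 identifiers and 4 tested, with 0 higher and 0 lower. Cflo_antTRG249 was detected in all 11 brains, at 0.58 to 2.43, median 1.17, in TSA+C646 brains and at 1.25, 0.79, 0.75, 1.10 and 1.15 in DMSO brains. Cflo_antTRG389 was detected in 3 of 6 TSA+C646 brains at up to 5.63 and in 1 of 5 DMSO brains at 4.75. Cflo_antTRG574 was detected in 2 of 6 TSA+C646 brains and 4 of 5 DMSO brains, with a difference of -1.03 (SE 0.97).

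Whole libraries were no more alike within a group than between groups. Pearson's r of levels across the 4899 tested genes, which are not independent replicates, averaged 0.622 among TSA+C646 brains, 0.705 among DMSO brains and 0.672 between the groups. The mean within a group less that between groups was -0.0169 (exact one-sided permutation test over all 462 assignments of the 11 brains, p = 0.907). Without replicates 15 and 16 the 3 means were 0.772, 0.705 and 0.743, and the contrast was -0.0123 (exact one-sided p = 0.968, 126 assignments). Replicate 15 had a mean r of 0.354 with the other 10 libraries, its nestmate replicate 14 included (0.346). DMSO replicate 21, the only brain of colony SB7, had the next lowest mean r, 0.622, and the other 9 had 0.684 to 0.718.

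**Figure D5:**
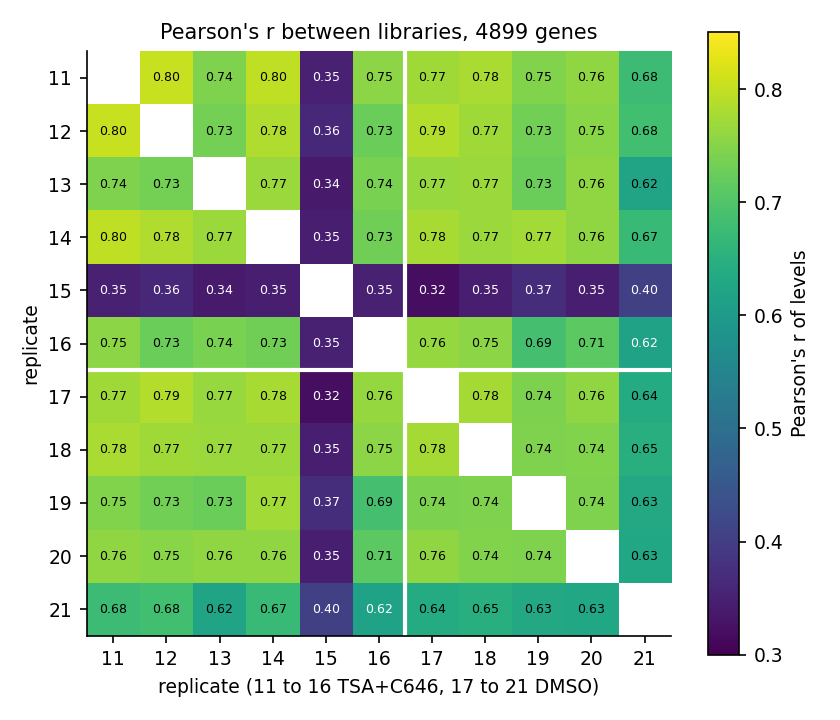
Pearson's r of levels across 4899 genes between each pair of the 11 libraries, with TSA+C646 replicates 11 to 16 above and left of the white lines and DMSO replicates 17 to 21 below and right of them. Replicate 15 has r of 0.319 to 0.404 with every other library, replicate 21 is the next lowest, and the other pairs within and between groups are of similar colour.

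Brain-to-brain spread per gene was larger in the TSA+C646 group when all its libraries counted. The median SD of deposited values over the 4899 genes was 0.86 in TSA+C646 brains (n = 6), 0.68 in TSA brains (n = 10) and 0.48 in DMSO brains (n = 5). With replicates 15 and 16 left out the TSA+C646 median was 0.42 (n = 4). The SD of levels, with constants removed and undetected identifiers at 0, was larger in TSA+C646 than in DMSO brains for 3687 genes (75.3%). Without the 2 libraries it was larger for 2075 genes (42.4%). Among nestmates of 1 age the median SD of deposited values was 0.70 in the 3 TSA+C646 brains of colony SB1. It was 0.40 in the 3 DMSO brains of colony SB2. With the constants removed these medians were 0.46 and 0.41. In a separately normalized table, 4 aliquots of 4% each of a single day 1 brain had a median SD of 0.17 over 4745 identifiers. That value is with the constants removed, where the group medians were 0.79 in TSA+C646, 0.65 in TSA and 0.48 in DMSO brains. Those aliquots had 11259 to 11636 identifiers detected and came from another age and table, so the values stand side by side without a comparison.

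The C646 doses were compared within the treated brains. With all 6 brains, 43 genes (0.878%) were higher and 806 (16.5%) lower at 100 µM (n = 2) than at 50 µM (n = 4) at an unadjusted limma p under 0.05, and 0 passed adjustment (smallest limma adjusted p = 0.0871, for Cflo_04983). The 100 µM group is replicates 14 and 15 and the 50 µM group holds replicate 16. Without replicates 15 and 16, 49 genes (1%) were higher and 56 (1.14%) lower, with 1 brain at 100 µM assumed to vary like the other groups. Cflo_04983 had levels of 0.43 and 0 at 100 µM and of 2.12, 2.58, 3.37 and 2.89 at 50 µM, a difference of -2.75 (SE 0.49). Cflo_14878 was on the higher side, at 4.61 and 6.02 at 100 µM and at 2.55, 0.77, 0.63 and 1.97 at 50 µM, a difference of 3.44 (SE 0.80; limma, adjusted p = 0.179). Both doses came with their own colonies and ages, so dose, colony and age cannot be told apart.

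With colony as a fixed term, linked through the SB6 pair and the brains fed TSA alone, 123 genes (2.51%) were higher and 32 (0.653%) lower in TSA+C646 brains at an unadjusted limma p under 0.05, around a median difference of 0.16. With colony as a random block the counts were 121 (2.47%) and 41 (0.837%), and 0 genes passed adjustment in either fit. Between nestmates, where colony and treatment cannot be told apart, the 3 SB1 brains fed TSA+C646 against the 3 SB2 brains fed DMSO gave 205 genes (4.18%) higher and 26 (0.531%) lower at an unadjusted limma p under 0.05, around a median difference of 0.28, with 0 passing adjustment. Replicate 16, with its constant of 0.907, is 1 of those 3 SB1 brains. The SB6 pair, TSA+C646 replicate 12 and DMSO replicate 20, differed by a median of 0.04 over the tested genes, with 606 genes more than 1 higher and 489 more than 1 lower on the log2 scale. For brains fed TSA alone against the same DMSO brains, 133 genes (2.71%) were higher and 27 (0.551%) lower at an unadjusted limma p under 0.05, and 0 passed adjustment. TSA replicates 9 and 10, with constants of 0.482 and 0.840, are among those brains.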

How the data were processed

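RNA of 21 scout brains was analysed from 1 deposited table, with 10 day 1 brains and 6 subsample libraries from separately normalized tables used for detection and spread only. The 27 chromatin and input samples were not analysed here. The submitters' processing notes name bcl2fastq 2.0, Bowtie2 and Cufflinks 2.2.1. The build and the annotation were not given in the sources used here. The deposited values are read as log2, a base inferred from their sums. Every deposited library was found to follow 1 shared distribution plus a constant, clipped at 0, and identifiers tied at the bottom were spread in line order. That order showed which were undetected, so detection is inferred. Depth is unknown.

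Differences were fitted on the deposited log2 values with limma 3.58.1 in R 4.3.3 (variance trend, 21 libraries of 3 groups in 1 fit, genes with a mean of at least 1, Benjamini-Hochberg at 0.05). The plan had foreseen linear values as well, which was not needed. Exact permutation and Fisher's tests used scipy 1.17.1, and the fit was tested on simulated data. The simulation drew independent values with 1 spread per gene for all libraries. It held no library like replicates 15 and 16 and no undetected identifiers, so it cannot show how the fit deals with them. Alternatives covered filters, scaling, array weights, colony terms, single doses and left-out libraries, and those joining constants removed with replicates 15 and 16 left out were added after seeing the data. The labels tie each library to a separate brain. Members and lists were chosen with earlier results of these data known. Named were the 12 genes with the smallest p in each direction, up to 6 a direction whose groups did not overlap, up to 3 a class, the 5 highest in each group and up to 4 a direction by detection. No identifier is paired with a gene name beyond receptor and RNA classes, so planned pathway and marker lists could not be filled.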

Additional observations from a re-analysis of the deposited data

Results flagged for a closer look

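A brain was singled out where its gap to the nearest other brain, divided by the range of its group, passed Dixon's 95% value. Of 116 groups of values screened, 34 did. Chance alone singles out about 1 in 20, but in 14 of the 34 the gap was the whole range, and many of these identifiers had been chosen because a single brain of a group detected them, so the 2 shares cannot be compared. Replicate 15 accounts for 7 of these and replicate 16 for 8. No explanation was tested.

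At the level of whole libraries, TSA+C646 replicate 16 was high in its constant (0.907), and replicate 15 was low in its mean r with the other libraries (0.354) and in transfer RNAs detected (0). In the DMSO group, replicate 21 was low in mean r (0.622) and replicate 17 was high in ribosomal RNA identifiers detected (23).

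Among TSA+C646 brains, replicate 15 was high for Cflo_09998 (2.89), Cflo_15590 (6.20), Cflo_15421 (1.89) and Cflo_01634 (2.09), and low for Cflo_12676 (0). In replicate 15 a level is 0 unless the deposited value is above 1.3, and low levels above 0 cannot occur. Replicate 16 was high for Cflo_11929 (3.40), Cflo_11701 (2.41), Cflo_13890 (1.82), Cflo_14313 (4.18), Cflo_08884 (0.18), Cflo_00141 (0.96) and Cflo_00906 (0.97), being the only TSA+C646 brain with each. Replicate 11 was high for Cflo_12534 (4.29), replicate 12 for Cflo_16054 (0.49) and replicate 14 for Cflo_IR76b (0.49).

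Among DMSO brains, replicate 17 was high for Cflo_13865 (3.28), Cflo_15128 (3.48), Cflo_01634 (0.19) and Cflo_ORco (0.92), and replicate 18 for Cflo_16291 (2.16) and Cflo_15639 (2.0). Replicate 18 was low for Cflo_14313 (0.76). Replicate 19 was high for Cflo_15390 (1.73), Cflo_15676 (2.65) and Cflo_13151 (2.26) and low for Cflo_10501 (0). Replicate 20 was high for Cflo_16054 (2.95), and replicate 21 was high for Cflo_14112 (4.57) and low for Cflo_05532 (0).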

How the results depend on the processing

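Under none of the 26 alternatives run did a gene pass the adjusted threshold between TSA+C646 and DMSO brains (limma, smallest adjusted p over all alternatives 0.0992, at 100 µM C646 alone). The counts at an unadjusted limma p under 0.05, 114 higher and 36 lower, moved with several of them. Without the filter they were 360 and 62 of 18130, and with a filter at a mean of 5 they were 0 and 0 of 262. Removing the constants and setting undetected identifiers to 0 gave 77 and 127, quantile normalization 82 and 113, array weights 145 and 94. The 50 µM brains alone gave 177 and 3, the 100 µM brains alone 135 and 494, and SB1 against SB2 nestmates 205 and 26. Without replicates 15 and 16 they were 74 and 54, or 80 and 70 with the constants removed as well. Leaving out 1 library at a time gave 55 (without replicate 16) to 169 (without replicate 15) higher, and 15 (without replicate 15) to 110 (without replicate 16) lower. The 100 against 50 µM count of lower genes, 806, was 56 without replicates 15 and 16. Causes were not tested.

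The difference in identifiers detected, -115.5, was 262.5 without replicates 15 and 16, 1134.75 for 50 µM brains, and 730.9 for deposited values above 1. It ran from -888.4 (without replicate 16) to 959.8 (without replicate 15) with 1 library left out, and was 34.25 and 46.5 without DMSO replicate 17 or 18. The median SD in TSA+C646 brains was 0.42 without replicates 15 and 16, and that in DMSO brains 0.481 with the constants removed. Identifiers without overlap numbered 68 higher and 55 lower without the 2 libraries, and 23 and 7 as deposited. Fisher's exact test without replicates 15 and 16 found 94 more often and 57 less often detected at an unadjusted p under 0.05, with 0 after adjustment. With 4 and 5 brains that 0 was again near fixed by the design. The named genes were chosen for this difference and the alternatives reuse the same brains, so a kept sign is no sign of stability. The difference of Cflo_11701, -1.51, was -0.09 with colony as a fixed term, and that of Cflo_13151, 1.56, was 0.36 between SB1 and SB2 nestmates.

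No paired analysis was possible because the TSA+C646 and DMSO brains share no replicate numbers. Spike-in scaling could not be run, since the table analysed holds no spike-in values. Depth is unknown, so intervals rest on the spread between brains alone. The groups are small, differ in age throughout and share 1 colony with 1 brain a side. Most tested genes lie near the bottom of the scale, where an undetected value can be a failed estimate.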
